A study of Mus musculus with 6 samples.

Results

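The set described here is 10 genes that mark extraembryonic endoderm or serve its surface, and they were read by 20 probe sets among the 45037 probe sets and 18193 genes of an array study of mouse embryonic stem (ES) cells. Of the 10 genes, 5 belong to the cubilin-megalin route of endocytosis (Dab2, Cubn, Amn, Lrp2 and Lrpap1), and 5 are secreted or surface products associated with parietal endoderm (Srgn, Plat, Pth1r, Thbd and Cxcr4). Every probe set that the platform annotation assigns to a member symbol alone was used. The members were chosen by their log2 levels in knockout and wild-type cells on these same arrays, seen beforehand. Their differences between the groups are therefore a description and carry no test.

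The cells compared were Med23 knockout ES cells (3 arrays), set against wild-type ES cells (3 arrays). Both came from strain 129SV and were harvested in Trizol after 24 hours in fresh complete ES cell medium. Med23 is a subunit of Mediator, a large complex through which transcription factors act on RNA polymerase II. The labels call the arrays biological replicates but do not say whether the knockout line was a single clone or whether feeder cells were present.

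Cubilin is a large extracellular receptor with no membrane anchor of its own. Amnionless holds it at the cell surface, and together they bind vitamin B12 carriers, albumin and other proteins. Megalin, the product of Lrp2, is a transmembrane receptor of the LDL receptor family that works beside cubilin, and the chaperone encoded by Lrpap1 keeps such receptors from binding ligand while they are being made. Dab2 is the adaptor that couples their tails to clathrin-coated pits. In the early embryo this uptake system is a hallmark of visceral endoderm, the layer that feeds the epiblast, while its sister layer, parietal endoderm, migrates along the trophoblast and secretes a thick basement membrane.

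Promoter windows were drawn from RefSeq (GRCm38.p6), each running from 250 bases before to 50 bases after an annotated transcript start, in the direction of the gene. The table gave 12 windows for 8 of the 10 members. Those shown belong to Srgn, the member with the largest difference between the groups, to the endocytic genes with large differences (Dab2, with both its starts, Cubn and Amn) and to Lrp2, which differed least, so that the letters upstream of genes that behaved differently can be compared. Capitals mark matches, on either strand, to AGATAA or the same letters with T as the first, G as the last or both (the core bound by GATA factors), to ACAAT (SOX factors), to CCGGAA (ETS factors, a family that includes the MED23 partner ELK1) or to TGANTCA (AP-1).
Dab2, chr15:6299539-6299838, plus strand: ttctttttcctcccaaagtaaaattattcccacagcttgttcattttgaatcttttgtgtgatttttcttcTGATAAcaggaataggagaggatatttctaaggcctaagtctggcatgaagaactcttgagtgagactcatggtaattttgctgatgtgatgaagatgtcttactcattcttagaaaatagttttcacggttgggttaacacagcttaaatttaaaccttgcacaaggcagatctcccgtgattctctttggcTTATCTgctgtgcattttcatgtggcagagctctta
Dab2, chr15:6386498-6386797, plus strand: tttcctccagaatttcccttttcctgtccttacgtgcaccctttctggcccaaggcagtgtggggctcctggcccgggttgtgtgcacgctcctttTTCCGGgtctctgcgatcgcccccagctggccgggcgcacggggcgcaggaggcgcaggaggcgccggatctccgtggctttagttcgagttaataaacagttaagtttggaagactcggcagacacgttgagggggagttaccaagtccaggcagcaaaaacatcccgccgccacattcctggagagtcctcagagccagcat
Cubn, chr2:13491827-13492126, minus strand: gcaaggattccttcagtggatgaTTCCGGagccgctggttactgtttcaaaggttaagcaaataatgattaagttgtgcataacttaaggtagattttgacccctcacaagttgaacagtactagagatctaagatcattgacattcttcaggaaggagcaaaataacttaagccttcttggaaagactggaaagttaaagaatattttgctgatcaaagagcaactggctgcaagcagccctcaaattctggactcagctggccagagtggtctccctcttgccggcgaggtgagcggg
Srgn, chr10:62527396-62527695, minus strand: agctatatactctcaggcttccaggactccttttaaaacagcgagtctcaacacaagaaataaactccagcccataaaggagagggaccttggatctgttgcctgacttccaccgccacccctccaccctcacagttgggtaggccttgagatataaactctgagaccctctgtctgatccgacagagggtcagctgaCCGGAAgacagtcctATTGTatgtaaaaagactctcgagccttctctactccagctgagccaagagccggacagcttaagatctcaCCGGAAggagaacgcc
Amn, chr12:111270846-111271145, plus strand: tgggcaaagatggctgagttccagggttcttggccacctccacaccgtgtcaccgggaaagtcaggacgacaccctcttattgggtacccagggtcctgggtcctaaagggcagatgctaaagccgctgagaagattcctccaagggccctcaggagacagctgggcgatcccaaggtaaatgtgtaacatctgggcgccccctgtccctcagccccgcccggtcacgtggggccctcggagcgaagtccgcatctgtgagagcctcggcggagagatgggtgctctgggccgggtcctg
Lrp2, chr2:69585980-69586279, minus strand: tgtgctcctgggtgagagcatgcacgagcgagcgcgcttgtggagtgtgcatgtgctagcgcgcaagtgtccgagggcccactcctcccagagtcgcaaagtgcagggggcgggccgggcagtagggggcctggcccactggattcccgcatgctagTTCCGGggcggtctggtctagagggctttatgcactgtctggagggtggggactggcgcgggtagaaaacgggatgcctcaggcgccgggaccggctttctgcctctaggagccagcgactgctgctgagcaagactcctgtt

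The first Dab2 window held 2 GATA matches and no ETS match, while the second Dab2 window, the Cubn window and the Lrp2 window held 1 ETS match each. The printed Srgn window held 2 ETS matches and 1 SOX match, the other Srgn window (chr10:62507708-62508007, minus strand) held no match and 4 CpG, and the Amn window held none of the 4 motifs. CCGGAA was thus present in 4 of the 12 member windows, against 14.9% of all 32851 RefSeq windows of this length, and it occurred both in genes that differed strongly and in Lrp2. A GATA core occurred in 1 of the 12 (29.8% of all windows), ACAAT in 1 (31.0%) and TGANTCA in 0 (7.81%). The CpG count was 2 in the first Dab2 window, 5 in the Cubn window and 8 in the printed Srgn window, and 19, 15 and 20 in the second Dab2, Amn and Lrp2 windows, against a median of 7 over all windows. These matches describe letters only.

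Before the members are described, 4 facts of the whole series bear on them. Med23 itself, read by 1 probe set for which no source used here gives the place relative to the deletion, was 7.40, 7.37 and 7.33 (log2) in knockout cells, against 8.95, 8.86 and 8.84 in wild-type cells. Array medians lay between 4.61 and 4.64, and the median over every probe set, called the array-wide median below, was 4.62. A value near or below that median cannot be separated from background, because no detection calls were used here. Wild-type replicate 1 stood apart, where 752 probe sets were 2-fold or more under the average of the remaining wild-type arrays, and no other array had more than 4 such probe sets. ES cell identity was evident in both groups, since the levels of Pou5f1 (12.92 ± 0.01 in knockout cells and 12.96 ± 0.04 in wild-type cells), Nanog (11.78 ± 0.01 and 11.54 ± 0.12, in that order) and Sox2 (11.92 ± 0.05 and 11.84 ± 0.03) were high (SD, n = 3 each).

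Across the set, 7 of the 10 genes had every knockout array below every wild-type array, and 6 were at least 2-fold lower in knockout cells. A gene was represented by its brightest probe set. Over all 18193 genes the corresponding shares were 19.5% for non-overlap in that direction and 1.97% for a 2-fold lower level. The limma fit over all probe sets placed 7 members below its adjusted p threshold of 0.05 on the lower side and 0 on the higher side, against 10.4% and 8.53% of all genes. Of the 20 probe sets, 12 were called lower (7.43% of all probe sets), 0 higher (6.69%), and 13 had all knockout arrays below all wild-type arrays (14.8%). Since these same differences chose the members, nothing follows from the counts. The median log2 fold change of the members was -1.61, against 0.02 over all genes. In bulk RNA a lower level in every cell and fewer cells of one type cannot be told apart, here and below.

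**Figure D1:**
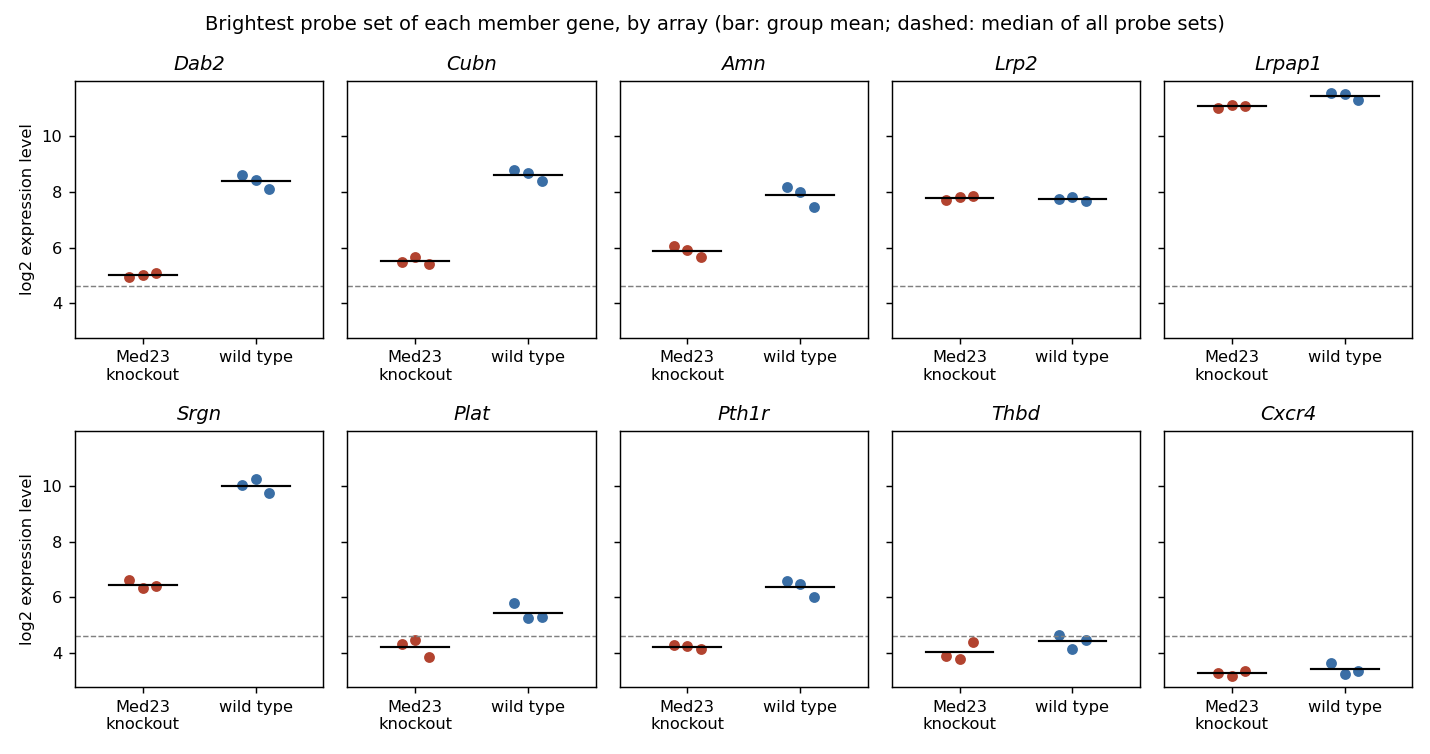
Log2 expression level (y axis) of the brightest probe set of each of the 10 member genes in the 3 Med23 knockout arrays (left, red) and 3 wild-type arrays (right, blue), with bars at the group means and a dashed line at the array-wide median (4.62). Dab2, Cubn, Amn, Srgn, Plat and Pth1r lie clearly lower in knockout cells, Lrpap1 slightly lower, and Lrp2, Thbd and Cxcr4 overlap between the groups.

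Among the endocytic genes, the cubilin receptor, its anchor and the adaptor were all far lower in knockout cells. Dab2 measured 4.93, 5.01 and 5.07 (log2) in knockout cells, against 8.61, 8.44 and 8.10 in wild-type cells. All knockout values sat just above the array-wide median, so the size of the fold is uncertain, and the gap between the groups was many times the spread within either. On average it was 5.004 ± 0.07 in knockout cells and 8.39 ± 0.26 in wild-type cells (SD, n = 3 each). The log2 fold change was -3.38 (SE 0.13), or 10.4-fold lower.

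Cubn measured 5.47, 5.67 and 5.42 in knockout cells, against 8.81, 8.69 and 8.39 in wild-type cells. The groups did not overlap and the means, 5.52 ± 0.13 in knockout cells and 8.63 ± 0.22 in wild-type cells, differed by -3.11 (SE 0.12), so that Cubn was 8.63-fold lower in knockout cells. The name of this probe set ends in _s_at, the Affymetrix mark for probes that can match transcripts of more than 1 gene. The other Cubn probe set, without that mark, gave a log2 fold change of -2.53 (SE 0.13), with means of 4.08 ± 0.19 in knockout cells and 6.61 ± 0.19 in wild-type cells. That knockout mean lay below the array-wide median, so the size of the difference in this probe set is uncertain.

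Amn, the gene of the anchor amnionless, measured 6.05, 5.92 and 5.66 in knockout cells, against 8.18, 8.01 and 7.45 in wild-type cells. It showed the widest spread among the wild-type arrays of the 5 endocytic genes, 0.74 from lowest to highest, yet the lowest wild-type array still lay above the highest knockout array. The difference was -2.00 (SE 0.20), or 4.004-fold lower.

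The gene of megalin, Lrp2, measured 7.72, 7.80 and 7.85 in knockout cells, against 7.75, 7.81 and 7.68 in wild-type cells, and the groups overlapped in this probe set. The log2 fold change was 0.04 (SE 0.07), with a 95% interval of the fit from -0.12 to 0.20. The other Lrp2 probe sets gave -0.16 each, so the sign of the small difference depends on the probe set. One of these, an _s_at probe set, had all knockout arrays (6.57 to 6.63) below all wild-type arrays (6.71 to 6.78), with an interval from -0.30 to -0.02, and the other had both group means below the array-wide median.

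Lrpap1, which encodes the receptor chaperone, measured 11.01, 11.14 and 11.09 in knockout cells, against 11.58, 11.52 and 11.31 in wild-type cells. The groups were separate but close, with a difference of -0.39 (SE 0.09), or 1.31-fold lower. Its 4 probe sets ran from -0.39 to -0.22, and in 2 of them the groups overlapped. Leaving out any single array other than wild-type replicate 3 took Lrpap1 out of the calls of the fit, and the count of members called lower was then 6.

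The 4 Dab2 probe sets did not give the same size of difference. After the brightest, at -3.38, the next in brightness gave -0.45 (SE 0.10), the third -1.49 (SE 0.09) and the faintest -0.57 (SE 0.12). Knockout arrays lay below wild-type arrays in all 4. The fainter probe sets had knockout means of 4.17, 3.37 and 3.47 and wild-type means of 4.62, 4.85 and 4.04. All of these knockout means lay below the array-wide median, and the wild-type means lay near or below it. The sizes of the differences in the fainter probe sets are therefore uncertain. The sizes did not follow brightness. Averaged over its probe sets, the faint ones included, the log2 fold change of Dab2 was -1.47.

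**Figure D2:**
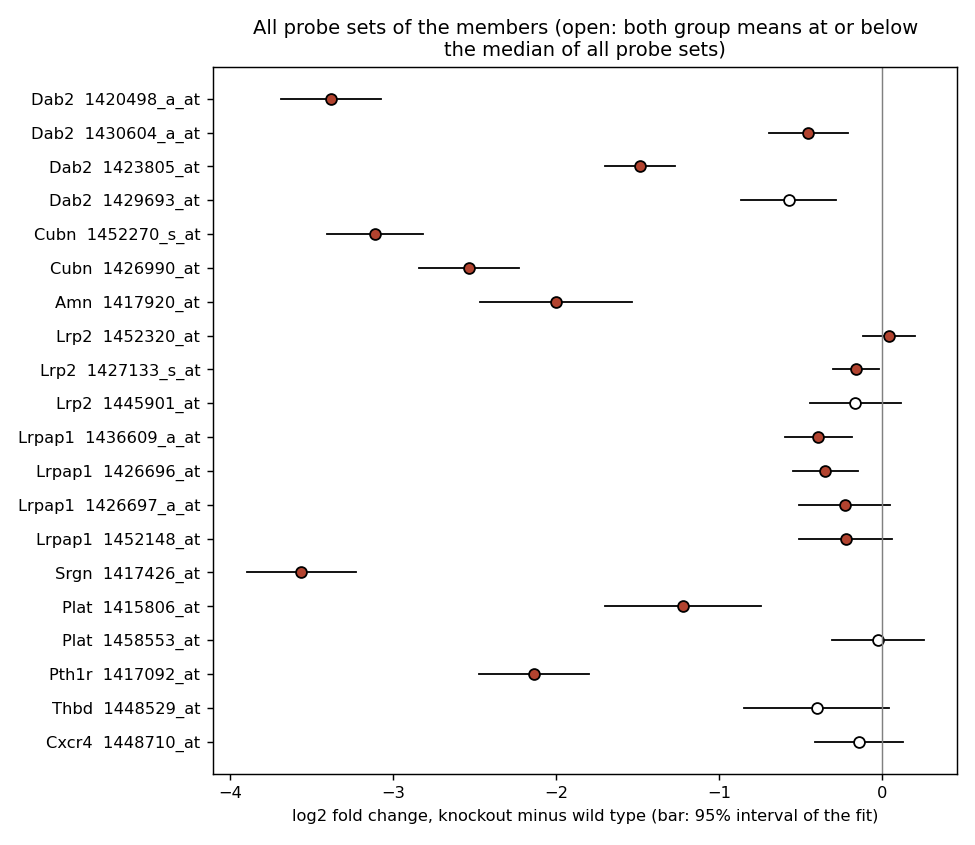
Log2 fold change, knockout minus wild type (x axis), of each of the 20 probe sets of the member genes (rows), with the 95% interval of the fit; open points have both group means at or below the array-wide median. The 4 Dab2 probe sets spread from -3.38 to -0.45, both Cubn probe sets lie at or below -2.53, and the 3 Lrp2 probe sets lie between -0.16 and 0.04.

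Of the surface and secreted products, serglycin and the parathyroid hormone receptor showed the largest differences. Srgn encodes serglycin, the core protein of an intracellular proteoglycan packed into secretory vesicles. It measured 6.62, 6.34 and 6.40 in knockout cells, against 10.05, 10.26 and 9.74 in wild-type cells. This was the largest difference in the set, -3.56 (SE 0.14), or 11.8-fold lower, and both group means were well above the array-wide median.

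Pth1r encodes the receptor for parathyroid hormone and its related peptide, a signal known to promote the formation of parietal endoderm from primitive endoderm. It measured 4.27, 4.25 and 4.15 in knockout cells, against 6.57, 6.48 and 6.02 in wild-type cells. The difference was -2.14 (SE 0.14), or 4.39-fold, and the knockout values lay below the array-wide median, so its size is uncertain.

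Plat encodes tissue plasminogen activator, the protease that turns plasminogen into plasmin. It measured 4.33, 4.47 and 3.84 in knockout cells, against 5.79, 5.25 and 5.27 in wild-type cells. The groups were apart (-1.22, SE 0.20, or 2.33-fold), but the knockout mean was below the array-wide median. The second Plat probe set was faint in both groups (3.16 ± 0.11 in knockout cells and 3.18 ± 0.22 in wild-type cells, SD, n = 3 each) and showed a difference of -0.03.

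The remaining surface genes were faint everywhere. Thbd encodes thrombomodulin, which binds thrombin and redirects it to activate protein C. It measured 3.88, 3.78 and 4.38 in knockout cells, against 4.65, 4.13 and 4.45 in wild-type cells. The groups overlapped, with a difference of -0.40 (95% interval -0.85 to 0.04). Cxcr4, the receptor for the chemokine CXCL12, measured 3.27, 3.17 and 3.35 in knockout cells, against 3.65, 3.24 and 3.34 in wild-type cells (-0.14, 95% interval -0.41 to 0.13). For both genes the group means lay below 4.62, a signal that cannot be separated from background. They are the 2 members whose mean over the 6 arrays did not exceed that median.

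The array that stood apart, wild-type replicate 1, was the highest of the wild-type arrays in 8 of the 10 genes. The share of all genes with their highest wild-type value in that array was not computed, so nothing follows from this count. Without that array the log2 fold changes were -3.55 for Srgn, -3.27 for Dab2, -3.02 for Cubn, -2.03 for Pth1r, -1.85 for Amn, -1.05 for Plat and -0.34 for Lrpap1. Wild-type replicate 3 was the lowest of its group in 7 genes, where 41.8% of all genes had their lowest wild-type value in that array. It lay below the mean of the other wild-type arrays by up to 0.65, in Amn, where the groups differed by -2.00, and by 0.24 in Lrpap1, where they differed by -0.39. Within the knockout group the range ran from 0.12 for Pth1r to 0.63 for Plat, and it was wider than in the wild-type group for Plat, Thbd and Lrp2.

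The members lie on 8 different chromosomes, with Cubn, Lrp2 and Thbd together on chromosome 2 but not next to one another. Some chromosome stretches on these arrays carry lower levels of most of their genes in knockout cells, so each member was set against its nearest neighbours in RefSeq gene order, up to 10 on each side with a mean log2 level above 7. The neighbours' median log2 fold change lay between -0.09 (Pth1r) and 0.23 (Lrp2), against 0.03 over all 7616 such genes. Dab2 differed from the median of its 15 neighbours by -3.40, Srgn by -3.68 and Cubn by -3.23 (20 neighbours each). At most 4 of a member's 20 neighbours were called lower (Pth1r). Beside Plat, neighbours ran from Nkx6-3 at -2.06 to Nek3 at 1.38, whereas the lowest neighbour of Dab2 was Rad1 at -0.22.

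**Figure D3:**
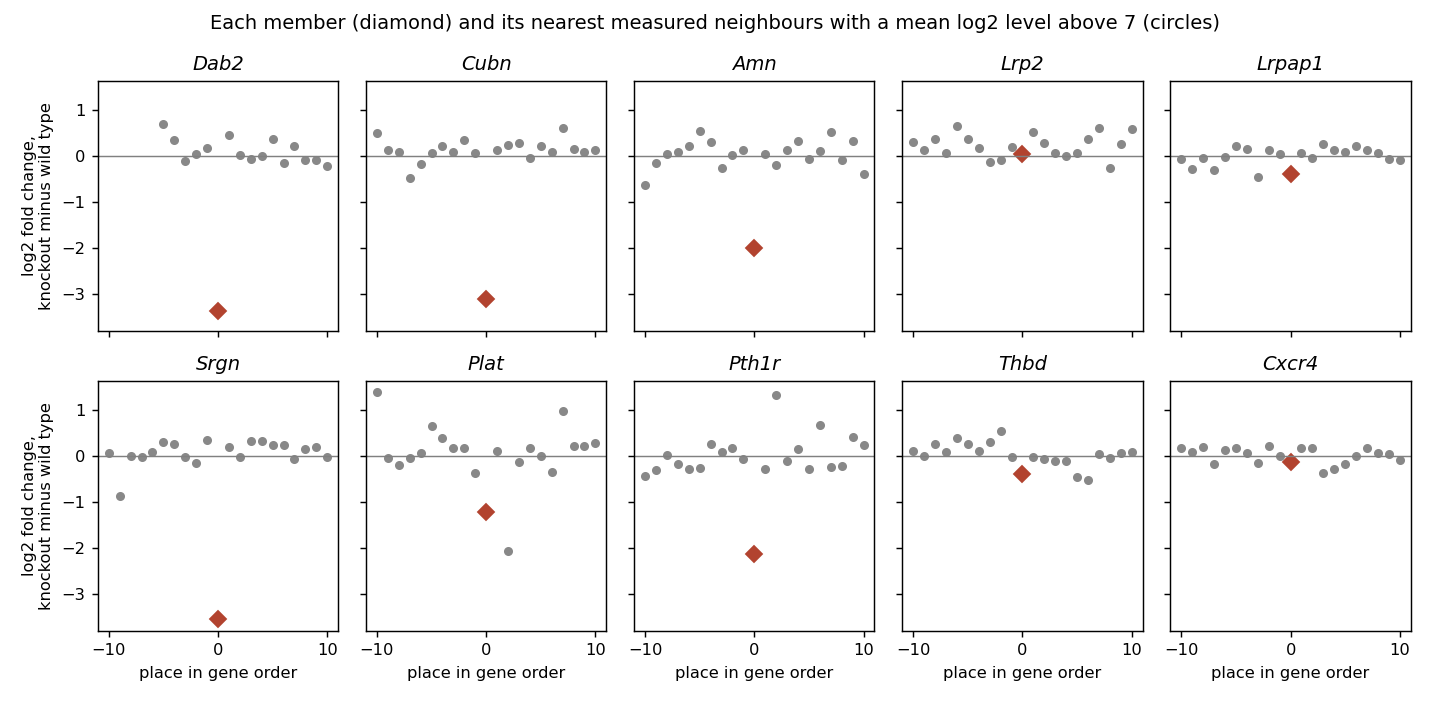
Log2 fold change, knockout minus wild type (y axis), of each member (red diamond, place 0) and of its nearest measured neighbours by place in gene order (x axis; grey circles, genes with a mean log2 level above 7). For Dab2, Cubn, Amn, Srgn and Pth1r the member lies below every neighbour shown, while Lrp2 and Cxcr4 lie among theirs.

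The 10 genes are shared with other cell types, so marker lists were read on the same arrays. Of 15 measured parietal endoderm markers, 13 fell and none rose (limma, adjusted p under 0.05, against 10.4% and 8.53% of all genes), with a median log2 fold change of -1.80. The summed linear level of the list was 2658 to 2797 in knockout arrays and 7538 to 8904 in wild-type arrays. Its largest changes were in the basement membrane collagens Col4a2 (-3.71) and Col4a1 (-3.41) and in the endoderm transcription factor Sox7 (-2.70, SE 0.28, adjusted p = 0.00113). The knockout mean of Sox7, 4.55, was below the array-wide median, which leaves that size uncertain. These 3 genes lie where neighbours were lower as well, with medians of -0.50, -0.53 and -0.61. The remaining parietal markers, Lamc1 and Stra6, had log2 fold changes of -0.20 and -0.03. This list was compiled with such falls already reported from these arrays and is no independent evidence of direction.

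Visceral endoderm markers were mixed. No gene stood on both this list and the parietal list, so any contrast between the lists depends on how genes were assigned to them. Of 15 measured visceral markers, 6 fell, 1 rose and 8 did not pass (46.7% called, against 18.9% of all genes). Their median log2 fold change was -0.06. The summed linear level was 5048 to 5121 in knockout arrays and 6716 to 7773 in wild-type arrays. That sum came mostly from Apoe, by far the brightest gene of the list (12.12 in knockout cells and 12.64 in wild-type cells). Amot fell by 2.46 on the log2 scale, Foxa2 by 1.43 and Cited1 by 1.16, where the knockout means of Foxa2 (3.60) and Cited1 (4.28) were below the array-wide median and leave the size uncertain. The retinol carrier gene Rbp4 rose by 0.36, whereas the plasma protein genes Afp and Ttr had group means below 4.62 in both groups (Afp 4.03 in knockout cells and 3.81 in wild-type cells, Ttr 4.47 and 4.31). Of 9 definitive endoderm markers 2 fell (22.2% called, against 18.9% of all genes). These were Sox17 (-2.45) and Foxa2, which the extraembryonic lists hold too. The knockout mean of Sox17, 4.38, was below the array-wide median, which leaves that size uncertain.

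Srgn, Thbd, Plat and Cxcr4 are also known in blood cells and endothelium. Of 11 blood and macrophage markers 2 fell and none rose (18.2% called, against 18.9% of all genes). The falls were Cd68 (-1.55, limma adjusted p = 2.53e-05) and Laptm5 (-0.54, with 1 of its 5 probe sets higher). In 6 markers both group means were at or below the array-wide median, among them the pan-leukocyte gene Ptprc (2.84 in knockout cells and 2.93 in wild-type cells). Cd68 (7.80 in knockout cells and 9.35 in wild-type cells), Laptm5 (9.96 and 10.50, in that order) and Coro1a (7.36 and 7.59) were well above it. The summed linear level of that list was 1507 to 1544 in knockout arrays and 2292 to 2574 in wild-type arrays. Of 12 endothelial markers 3 fell and 1 rose (33.3% called, against 18.9% of all genes). Sox18 fell by 1.32, Esam by 0.76 and the endothelial cadherin gene Cdh5 by 0.62, though Cdh5 averaged 3.20 in knockout cells and 3.82 in wild-type cells, under the array-wide median in both. Tek rose by 0.55, and Egfl7 was bright in both groups (8.92 in knockout cells and 8.997 in wild-type cells). In 5 of the 12, among them the receptor genes Kdr and Tie1, both group means were at or below the array-wide median. The summed linear level of the endothelial list was 879 to 890 in knockout arrays and 935 to 1057 in wild-type arrays.

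Of 9 measured trophoblast markers 3 fell and none rose (33.3% called, against 18.9% of all genes). The falls were the keratin gene Krt7 (-1.91), Plac1 (-0.90) and Ascl2 (-0.35). Plac1 and Ascl2 did not pass in some leave-one-out fits (limma adjusted p up to 0.116 for Plac1 and 0.0858 for Ascl2). The knockout means of Krt7 (4.56) and Plac1 (4.07) were below the array-wide median, so the sizes of their falls are uncertain. Their summed linear level was 728 to 787 in knockout arrays and 765 to 828 in wild-type arrays. Of 13 fibroblast markers, 1 fell (Thy1, -0.73) and 1 rose (Fn1, 0.39), or 15.4% called, against 18.9% of all genes. In 9 of them both group means were at or below the array-wide median. The summed linear level of the fibroblast list was 2363 to 2433 in knockout arrays and 1867 to 1934 in wild-type arrays. That sum came mostly from Fn1 (11.08 in knockout cells and 10.69 in wild-type cells). Of 10 ES cell markers 2 fell slightly (20% called, against 18.9% of all genes). These were Fgf4 (-0.37) and Tdgf1 (-0.28), with limma adjusted p up to 0.0851 and 0.155 when 1 array was left out. The part of any such cells in the members' differences was not tested.

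**Figure D4:**
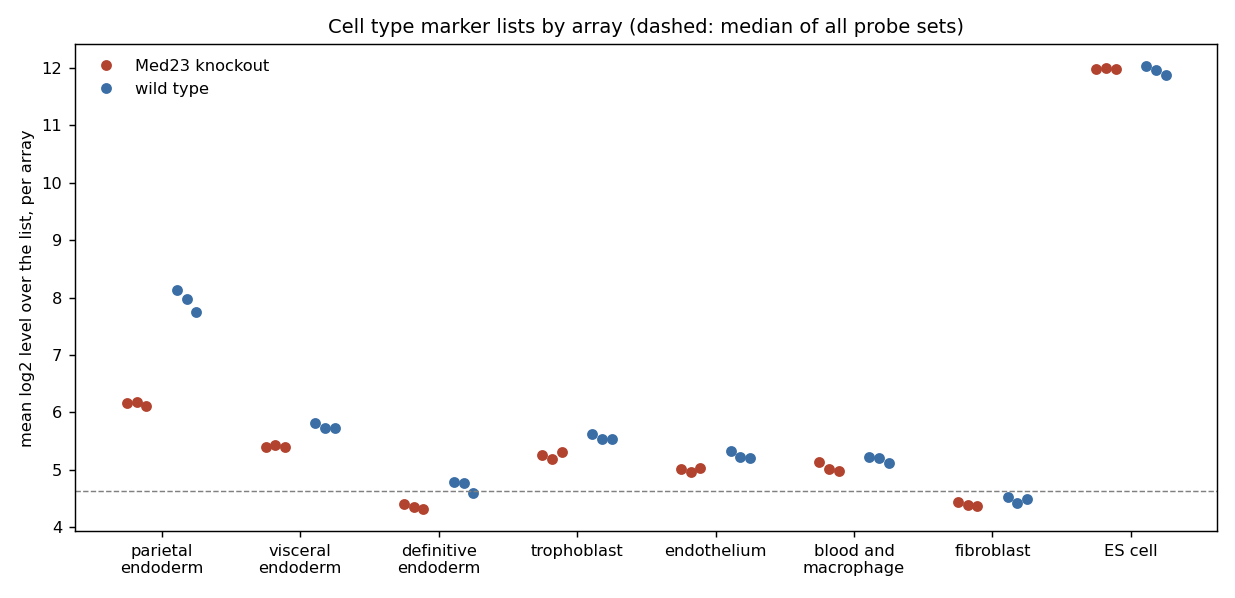
Mean log2 level over each cell type marker list (y axis) in each Med23 knockout array (red, left) and wild-type array (blue, right), with a dashed line at the array-wide median (4.62). The parietal endoderm list is lower in all 3 knockout arrays (6.11 to 6.18) than in the wild-type arrays (7.76 to 8.13), and the ES cell list overlaps between the groups.

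The machinery that these receptors feed into was then examined, in lists drawn up for their role. Of 28 measured genes of the clathrin-coated pit, 3 rose, 3 fell and 22 did not pass, against 18.9% of all genes called in either direction, with a median log2 fold change of 0.08 in the list. The clathrin light chain gene Cltb fell (8.37 ± 0.04 in knockout cells and 9.02 ± 0.05 in wild-type cells, SD, n = 3 each; log2 fold change -0.65, SE 0.06, limma adjusted p = 0.000806), and so did the membrane-bending sorting nexin gene Snx9 (-0.61, adjusted p = 0.00798). Dab1, the neuronal relative of Dab2 that acts in reelin signalling, rose by 0.53 (adjusted p = 0.00923), although only 1 of its 5 probe sets passed and the gene averaged over them did not (adjusted p = 0.101). The heavy chain gene Cltc and the AP-2 subunit gene Ap2m1 had log2 fold changes of -0.10 and 0.00 and did not pass. Another AP-2 subunit gene, Ap2s1, rose by 0.26 (limma adjusted p = 0.0271). The AP-2 subunit genes Ap2a1, Ap2a2 and Ap2b1 differed by 0.24, 0.12 and 0.12 and did not pass. The number of called genes was 3 without any one of wild-type replicates 2 and 3 or knockout replicates 1, 2 and 3.

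Of 12 other LDL receptor family genes, 1 rose and 1 fell (16.7% called, against 18.9% of all genes). The number called was 4 after quantile normalization, with an intensity trend or with averaged probe sets, 5 with array weights and 6 when dim probe sets were left out. Vldlr, the receptor for very low density lipoprotein and reelin, was 6.42, 6.61 and 6.69 in knockout cells, against 5.04, 4.92 and 4.84 in wild-type cells. It rose by 1.64 (SE 0.09, limma adjusted p = 8.6e-05), with 3 of its 6 probe sets past the test in that direction and none in the other. The wild-type mean, 4.93, lay just above the array-wide median, so the size of this rise is uncertain. The brightest is an _x_at probe set, a type that can bind other transcripts. Lrp10 fell by 0.75 (adjusted p = 0.00295) and lies on chromosome 14 among 20 neighbours that all fell, with a median of -0.76. The close relatives Lrp1 and Lrp8 had log2 fold changes of -0.31 and -0.26 and missed the threshold (adjusted p = 0.0689 and 0.0694).

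In the endosome, lysosome and cargo list, 5 of 31 genes rose, 5 fell and 21 did not pass (median -0.01). The share called was 32.3%, against 18.9% of all genes. The lysosomal protease genes Ctsb and Ctsc fell by 1.06 and 1.03 (limma adjusted p = 0.000197 and 0.000129), and the endosomal chloride transporter gene Clcn5 by 0.82 (adjusted p = 0.00612). Ctsb and Clcn5 lie in stretches where neighbours were lower too (medians -0.69 on chromosome 14 and -0.91 on the X chromosome), and Ctsc does not (0.12). Ctsc was called by 1 of its 3 probe sets. Among the rises were Lamp2 (0.51, adjusted p = 0.0228), a lysosomal membrane protein gene, and Gipc1 (0.48, adjusted p = 0.0331), whose product binds the megalin tail. The vitamin B12 carrier and receptor genes Tcn2 and Cd320 differed by -0.01 and -0.08 and did not pass. Of other vitamin B12 genes in the list, Mmachc rose by 0.42 (limma adjusted p = 0.0111), and Lmbrd1 differed by 0.09 and did not pass. Cblif, which encodes the cubilin ligand intrinsic factor, was faint in both groups (3.09 in knockout cells and 3.11 in wild-type cells). The number of called genes was 6 without wild-type replicate 2 and 4 without any one knockout array.

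Among the 7 related lists, the plasminogen and coagulation list held the most calls for its size. Of 20 measured genes, 8 fell, 2 rose and 10 did not pass, against 10.4% and 8.53% of all genes, and the median log2 fold change was -0.08. Procr, the endothelial protein C receptor gene, measured 5.74, 6.03 and 5.98 in knockout cells, against 7.15, 7.01 and 7.30 in wild-type cells (-1.24, SE 0.11, limma adjusted p = 0.000505). S100a10 and Anxa2 encode the complex that holds tissue plasminogen activator at the cell surface. S100a10 fell by 1.10 (adjusted p = 6.84e-05) and Anxa2 by 0.50 (adjusted p = 0.0184). Plaur, the urokinase receptor gene, fell by 1.04 (adjusted p = 0.00131).

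The other falls in that list were Proc (-0.82), the coagulation initiator gene F3 (-0.70), its inhibitor gene Tfpi (-0.59) and Serpinb6a (-0.49), and the rises were F2 (0.37) and Plgrkt (0.34). The ligands at the start of the pathway, urokinase (Plau) and plasminogen (Plg), were faint in both groups and did not pass. Across leave-one-out fits, 7 to 10 genes of the list were called. Anxa2, Proc, F3, Tfpi, Serpinb6a, F2 and Plgrkt were named after their values were seen.

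**Figure D5:**
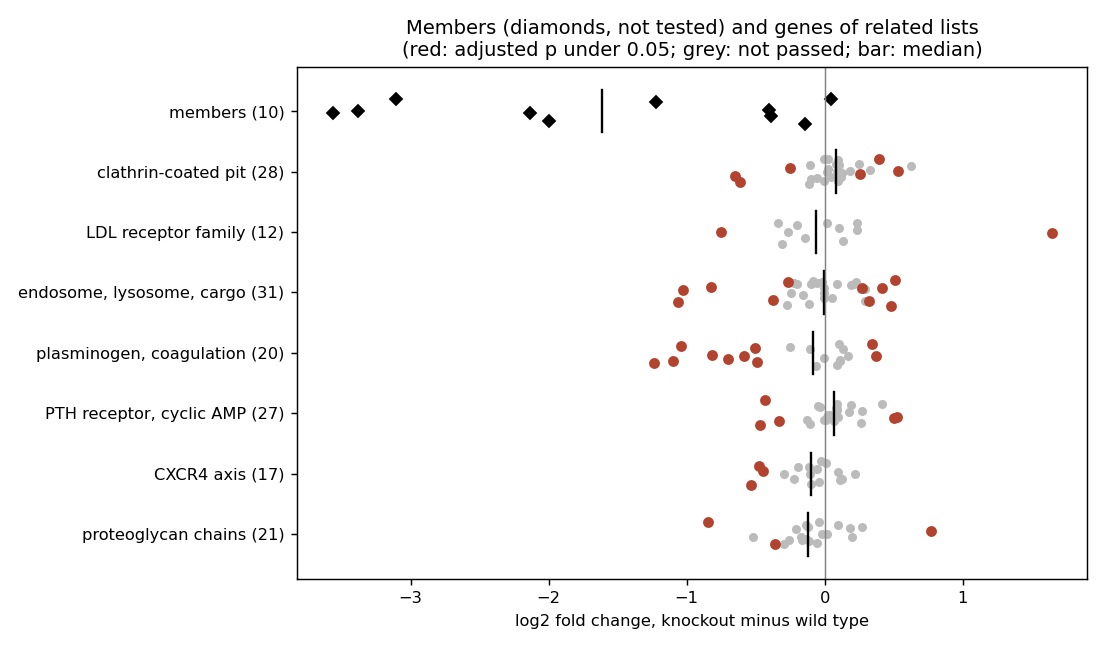
Log2 fold change, knockout minus wild type (x axis), of the 10 members (black diamonds, not tested) and of the measured genes of 7 related lists (rows, with the number of genes), red where adjusted p was under 0.05, with a bar at each list's median. The members' median is -1.61, while the medians of the 7 lists lie between -0.12 and 0.08.

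In the lists around Pth1r, Cxcr4 and serglycin, 18.5%, 17.6% and 14.3% of genes were called in either direction, against 18.9% of all genes. Of 27 genes of PTH ligands and cyclic AMP signalling, 2 rose and 3 fell (median 0.07), among them Pde4d, a cyclic AMP phosphodiesterase gene (0.52, limma adjusted p = 0.0299), the G protein gene Gnaq (0.50, adjusted p = 0.00426) and the adenylyl cyclase gene Adcy6 (-0.47, adjusted p = 0.0428). Pde4d and Adcy6 did not pass in some leave-one-out fits (adjusted p up to 0.0972 for Pde4d and 0.12 for Adcy6). Dropping a knockout array left 1 called gene (replicate 1), 2 (replicate 2) or 3 (replicate 3), and dropping wild-type replicate 2 left 3. The hormone gene Pth was faint in both groups (3.21 in knockout cells and 3.14 in wild-type cells). Pthlh, the gene of the related peptide, was not matched to a probe set with 1 symbol, so its level was not read.

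Of 17 genes of the CXCR4 axis, 3 fell and none rose (median -0.10), all of them signalling components. The receptor kinase gene Grk6 fell by 0.54 (limma adjusted p = 0.00212), the G protein gene Gnai2 by 0.48 (adjusted p = 0.00622) and the arrestin gene Arrb1 by 0.45 (adjusted p = 0.00584). The chemokine gene Cxcl12 and the decoy receptor gene Ackr3 differed by 0.11 and 0.12 and did not pass. Of 21 genes that build the sugar chains carried by serglycin, 2 fell and 1 rose (median -0.12). Ext1, a heparan sulphate polymerase gene, rose by 0.77 (adjusted p = 0.000596), in 1 of its 2 probe sets, and Fam20b, a kinase gene that primes chain growth, fell by 0.36 (adjusted p = 0.0075). The third, Chst15, had a higher group mean below 4.62.

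Genes outside the set were ranked by likeness of profile over the 6 arrays, as the root mean square difference between profiles centred on their own means. Candidates were the 11818 non-member genes whose higher group mean exceeded the array-wide median, so likeness between members was not ranked. The non-member genes most like Dab2 were Col4a1 (0.07 log2 units), G730013B05Rik (0.09), Pla2g7 (0.14) and Col4a2 (0.20). For Cubn they were G730013B05Rik (0.11), Col4a1 (0.16), Lefty2 (0.17) and Dkk1 (0.21). With 3 arrays a group, this likeness rests mainly on the size of the difference between the groups. G730013B05Rik measured 3.78, 3.95 and 3.85 in knockout cells, against 7.26, 7.21 and 6.99 in wild-type cells, and the knockout values lay below the array-wide median. The knockout means of Pla2g7 (3.88) and Dkk1 (3.66) lay below that median as well, so the sizes of these differences are uncertain.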

How the data were processed

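The deposited table gives each probe set's log2 signal on the 6 arrays; its range (1.83 to 14.6) is the basis for reading the scale as log2. RMA and MAS5 are named, per the submitters' processing notes, without roles or versions. Values were used as deposited. The table lists 45101 probe sets, and 64 platform controls were removed. There were 0 columns of other samples. The platform annotation gave 34945 probe sets 1 symbol, 932 several and 9160 none, and 34741 were matched to RefSeq (GRCm38.p6) by Entrez identifier. Coordinates are printed for RefSeq promoter windows alone, as the table gives none.

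Differences (knockout minus wild type) were fitted with limma 3.58.1 in R 4.3.3 (lmFit, eBayes, 4 residual degrees of freedom, two-sided), and p-values were adjusted by Benjamini-Hochberg across the 45037 remaining probe sets. The fit was tested on simulated data. A gene's level is that of its probe set with the highest mean. The p-values measure the spread between arrays labelled as biological replicates, and the number of arrays limits the precision.

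The members and all gene lists were chosen with earlier results of these data known. Besides the members and Med23, each list's genes past the threshold were named by size of change, up to 3. This held only where the groups did not overlap and the higher mean exceeded 4.62. The 4 non-member genes most like Dab2 and the 4 most like Cubn were named too. Genes named for their role beyond that rule were picked with their values in view. The motifs and the neighbour comparison were also chosen with results known. List entries not matched to a probe set with 1 symbol were not analysed here.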

Additional observations from a re-analysis of the deposited data

How the results depend on the processing

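The alternatives were quantile normalization, centring on array medians, an intensity trend or robust moderation in eBayes, array weights, a filter on dim probe sets, averaging a gene's probe sets, the replicate number as a block, and leaving out each array. No member's difference changed sign except that of Lrp2, which was -0.09 when its probe sets were averaged. Averaging also gave -1.47 for Dab2, -2.82 for Cubn and -0.62 for Plat. These averages include probe sets with knockout means below the array-wide median, so their sizes are uncertain. Of 138 member values, 134 moved by less than the spread between replicates. Many of them had to, because a trend, robust moderation, the replicate block and the dim filter leave a member's fold unchanged. Leaving out any single array cannot move it by that much either, so this count is no measure of stability. The count of members on the lower side was 6 or 7 throughout, and Lrpap1 was the gene that left it.

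Called genes of the LDL receptor family numbered 4 after quantile normalization, with a trend or with averaged probe sets, 5 with array weights and 6 after the dim filter, against 2. The CXCR4 list had 5 with a trend or the dim filter, and the proteoglycan list 5 with a trend or averaged probe sets, against 3 each. The coated pit list had 3 with averaged probe sets, against 6. Leaving out 1 array gave 1497 to 3494 higher probe sets (3013 with all arrays) and 2289 to 3613 lower ones (3346), 3 to 7 called genes in the coated pit list, 4 to 10 in the endosome list and 1 to 4 in the PTH list. The higher count was 1826 without wild-type replicate 2 and 1710, 1497 and 1549 without knockout replicates 1, 2 and 3. With the replicate block there were 1915 higher and 2678 lower probe sets, and 3, 5 and 2 called genes in the coated pit, endosome and PTH lists. Deviations of same-numbered arrays correlated at -0.13, -0.06 and 0.00, and those of differently numbered arrays at -0.11 to 0.12. These values show no pairing by replicate number and cannot exclude one. The cause of these shifts was not tested. Fewer arrays or probe sets were fitted where some were left out. The calls of Adcy6, Tdgf1, Fgf4, Plac1, Ascl2, Pde4d, Thy1 and Dab1 ended under 1 to 7 alternatives, and Nanog passed under 4 (adjusted p 0.0192 to 0.049). Signal near or below the array median limits Thbd, Cxcr4, Plat, Pth1r, the fold of Dab2 and that of the fainter Cubn probe set.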

Other observations

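The members can be ordered by how far the wild-type arrays themselves spread. The range over the 3 wild-type arrays was 0.74 for Amn, 0.55 for Pth1r, 0.54 for Plat, 0.52 for Thbd and Srgn, 0.51 for Dab2, 0.42 for Cubn, 0.41 for Cxcr4, 0.26 for Lrpap1 and 0.12 for Lrp2. Wild-type replicate 3 was below the mean of the other wild-type arrays by 0.65 for Amn, 0.50 for Pth1r, 0.42 for Dab2, 0.41 for Srgn and 0.36 for Cubn, and by 0.10 for Lrp2. Among wild-type arrays the mean level of the parietal endoderm list was lowest in that array (7.76), as was that of most of the other lists read, the ES cell list (11.87) among them. With 1 array at each value these are descriptions.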
